A study of Mus musculus with 8 samples.

Results

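The genes described here are 47 genes of glucose transport, glycolysis, pyruvate use and the tricarboxylic acid (TCA) cycle, found by their symbols among the 26586 genes of a count table. The list held 2 glucose transporters, 14 glycolytic enzymes, 4 genes of lactate exchange, 6 genes of pyruvate entry into mitochondria, 4 pyruvate dehydrogenase kinases and 17 TCA cycle enzymes. All 47 had a row in the table, 3 of them under an older symbol (Pkm as Pkm2, Mpc1 as Brp44l and Mpc2 as Brp44). Glycolysis breaks glucose down to pyruvate in the cytosol, and lactate dehydrogenase converts pyruvate to lactate and back. The mitochondrial pyruvate carrier takes pyruvate into mitochondria, where the pyruvate dehydrogenase complex makes acetyl-CoA from it for the TCA cycle. Mammalian oocytes use glucose poorly and oxidise pyruvate, which the granulosa cells around them make by glycolysis and pass on.

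RNA-Seq was carried out on primordial follicles, which are oocytes within a single layer of flat pregranulosa cells, from mouse ovaries on postnatal day 3. The 4 mito-supplemented libraries came from the third generation after founder mice. These founders grew from oocytes that had received mitochondria of egg precursor cells at sperm injection. The 4 control libraries came from mice without such founders. The strain background of both groups is given as C57Bl/6 x CBA. The comparison asks whether transcripts of the follicles differ generations after the supplementation. The sources used here do not name sequenced controls made by sperm injection alone, so effects of the injection and of the mitochondria cannot be told apart. The labels do not say whether libraries that share the first part of their code came from 1 animal or litter, and the p values measure the spread between these libraries.

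The libraries held 10370045 to 19760763 counts. In control replicate 4, 75.3% of the counts were on the ribosomal RNA genes Rnr1, Rnr2, Rn45s and Rn18s, which left 2559876 counts for all other genes, and in the other libraries that share was between 20.2% and 45.6%. Markers of the labelled follicle cells were found in every library. The summed level of 18 oocyte markers was 4588, 236, 224 and 858 CPM (counts relative to the library total, normalized between libraries by edgeR's TMM factors) in control replicates 1 to 4. It was 379, 270.5, 1012 and 151 CPM in mito-supplemented replicates 1 to 4, with Nlrp5 the most abundant. The 12 pregranulosa markers summed to 262, 177, 299 and 833 CPM in controls and 429, 1084, 679.9 and 1226 CPM in mito-supplemented libraries, with Wt1 the most abundant. Control replicate 1 thus stood apart by its oocyte RNA. Of the oocyte markers tested, 0 of 16 had a fold change above 0 (median log2 fold change -1.65), and of the pregranulosa markers 10 of 11 did (median 0.94). The oocyte direction rests on control replicate 1. With that library omitted, a check chosen after the data were seen, 10 of 16 oocyte markers were above 0 (median 0.16), and 10 of 11 pregranulosa markers were (median 0.75). At an unadjusted p under 0.05 in edgeR there were 1 oocyte and 3 pregranulosa markers, against 7.71% of all genes tested. In that test 0 of all genes had an adjusted p under 0.05.

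Markers of other cells were also present. The 9 red cell markers with a row summed to 31.6, 7812, 5085 and 81.5 CPM in controls and 7866, 129.9, 41.3 and 42.4 CPM in mito-supplemented libraries. Control replicates 2 and 3 and mito-supplemented replicate 1 were therefore rich in red cell RNA and the other libraries were not. Hba-a1, a globin gene, had 0 counts in 7 of the 8 libraries. The 9 leukocyte markers, led by Lyz2, summed to 10.6, 138, 122 and 21.7 CPM in controls and 759.8, 12.7, 17.7 and 8.55 CPM in mito-supplemented libraries, highest in the same 3 libraries, and C1qb was at 0 in all 8. Surface epithelium markers, led by Upk3b, ran from 33.7 to 737 CPM. All 10 had a fold change above 0, 5 of them at an unadjusted p under 0.05 in edgeR, against 7.71% of all genes tested. Markers of stroma (led by Col3a1), endothelium (Kdr) and smooth muscle (Myh11) ran from 425 to 2876, 26.5 to 229.8 and 21.2 to 324 CPM. Fold changes were above 0 for 9 of 9, 7 of 8 and 5 of 5 of these, and for 6 of 6 leukocyte and 0 of 6 red cell markers tested, where omitting mito-supplemented replicate 1 left 2 of 6 leukocyte markers above 0 and omitting control replicate 2 put 5 of 6 red cell markers above 0. Omitting mito-supplemented replicate 4 left 2 of 5 smooth muscle markers above 0. In such bulk samples, fewer cells of a type and less RNA per cell cannot be told apart, and the part of these cells in the results below was not tested. Values without the 3 red cell libraries are given in places. Those 3 also held the most leukocyte RNA, and omitting them leaves 2 control and 3 mito-supplemented libraries. That comparison therefore does not single out red cells.

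The glycolytic enzymes mostly had higher estimates in mito-supplemented follicles, pyruvate entry genes mostly lower ones, and the TCA cycle enzymes were divided. No member had an adjusted p under 0.05 in edgeR or DESeq2. With limma-voom and sample quality weights 8 members were called, among 2913 genes in all. In the same comparison all 10 surface epithelium markers were higher, with a median log2 fold change of 1.88. Endothelium, pregranulosa and stroma markers were mostly higher too, with medians of 1.1, 0.94 and 0.68. Oocyte markers were lower only with control replicate 1 included. A different mix of cells cannot be told apart from different levels within cells. The median log2 fold change (mito-supplemented over control) was 0.41 over 14 glycolytic enzymes, with 11 above 0. It was -0.32 over the 6 pyruvate entry genes, with 5 below 0, and -0.10 over 16 TCA cycle enzymes, with 8 above and 8 below 0. The median of all 13873 genes tested was -0.10, and 44.9% of them were above 0, against 25 of 46 members. Scaling by library size alone moved the median of all genes to 0.17 and that of the TCA cycle enzymes to 0.15, so the direction of the TCA enzymes flips with the scaling, as that of all genes does. Relative to the median of all genes, the glycolytic enzymes were at 0.50, pyruvate entry at -0.22 and the TCA enzymes at -0.00133 in the TMM scaling, and at 0.58, -0.25 and -0.03 with library size alone. With limma-voom and sample quality weights these values were 0.181, -0.392 and 0.0688. Without control replicate 1 the glycolytic enzymes were at 0.35.

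**Figure D1:**
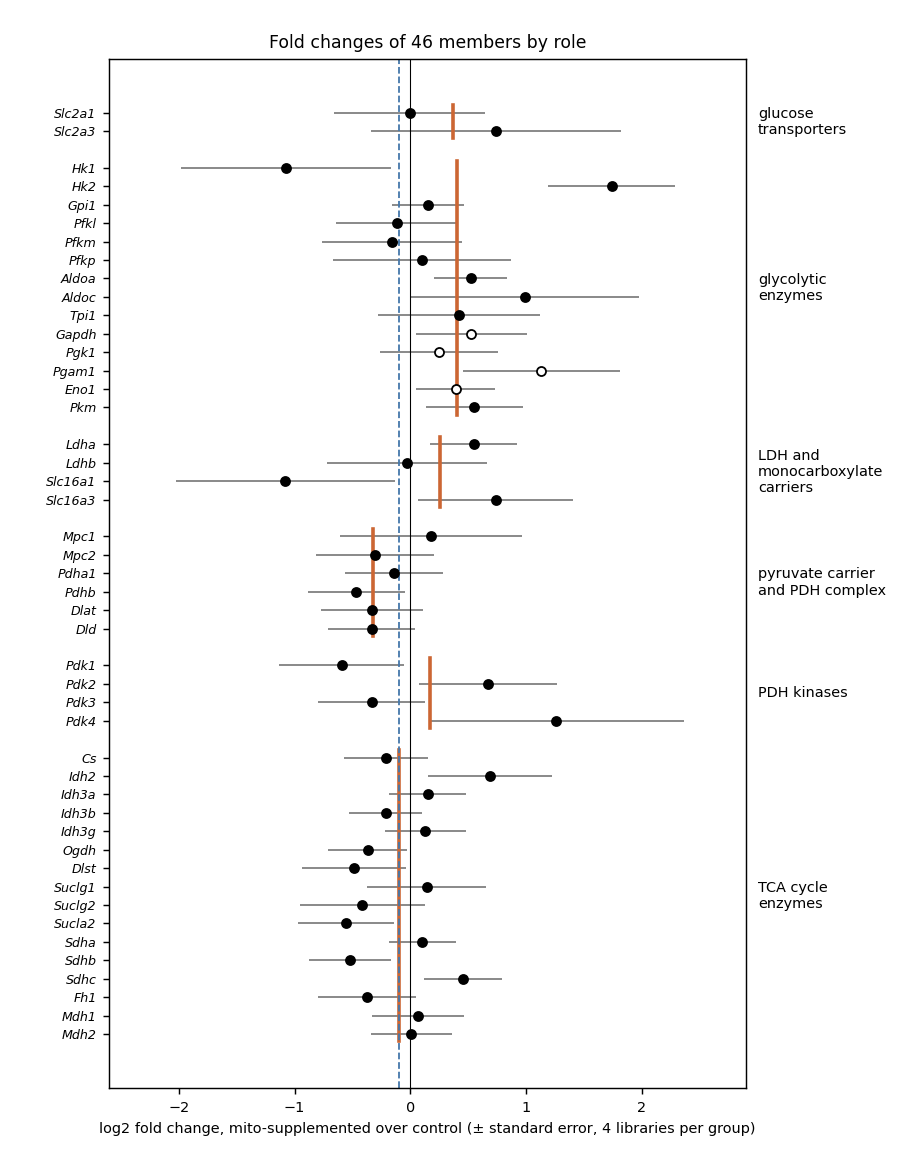
Log2 fold change of each of the 46 members tested (x axis, mito-supplemented over control, with its standard error as a bar) by role, with the median of each role as an orange line and the median of all genes (-0.10) as a dashed line. Open circles mark the 4 enzymes with the most windows shared with other annotated genes; 11 of 14 glycolytic enzymes and 1 of 6 pyruvate entry genes lie above 0, and library size scaling moves the TCA median to 0.15 along with that of all genes to 0.17.

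In edgeR's quasi-likelihood test, 0 of 46 members had an adjusted p under 0.05 (0.00% of all genes), and the lowest adjusted p of a member was 0.599. At an unadjusted p under 0.05 there was 1 member, Hk2, against 7.71% of all genes. The groups did not overlap for 2 members, Hk2 and Pgam1, against 5.03% of all genes. The log2 fold change was at least 1 in size for 5 members (Hk1, Hk2, Pgam1, Slc16a1 and Pdk4), against 26.3% of all genes. These shares were at or below those of all genes. edgeR's likelihood ratio test called 0 members and 0.418% of all genes, and DESeq2 called 0 members and 141 genes in all, whereas limma-voom with sample quality weights called 8 members and 2913 genes in all. Sdhd, a membrane anchor of succinate dehydrogenase, was left out by the filter on low counts, with 0 to 6 counts in a library. The standard errors of the members ran from 0.29 to 1.10, and for 7 members the 95% interval lay within 1 log2 unit on either side of 0 (Gpi1, Idh3a, Idh3b, Idh3g, Sdha, Mdh1 and Mdh2).

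Hk2, a hexokinase that starts glycolysis by phosphorylating glucose and that is induced in many tissues, lies on chromosome 6, 82725025 to 82774454 of GRCm38. Its level was 2.17, 3.88, 3.89 and 2.17 CPM in control replicates 1 to 4 and 10.2, 6.72, 9.89 and 13.8 CPM in mito-supplemented replicates 1 to 4. All 4 mito-supplemented values exceeded the highest control value, in libraries with and without much red cell RNA. The log2 fold change was 1.74 (standard error 0.55, edgeR adjusted p = 0.599), with an unadjusted p of 0.00965, and it stayed between 1.58 and 1.90 with each library left out in turn. With counts summed by the first part of the label code, an alternative chosen after the data were seen, it was 1.94 with an unadjusted edgeR p of 0.0523. Its counts were low, with 11 to 68 in controls and 97 to 218 in mito-supplemented libraries.

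Pgam1, the phosphoglycerate mutase of most tissues (chromosome 19, 41911923 to 41918660), was the other member whose groups did not overlap. It had 2.21, 1.35, 1.37 and 2.37 CPM in controls and 5.09, 2.49, 4.36 and 3.96 CPM in mito-supplemented libraries. The lowest mito-supplemented library, replicate 2, was close to the highest control, replicate 4. The log2 fold change was 1.13 (standard error 0.68, edgeR adjusted p = 0.694), and it was 0.675 without the 3 libraries rich in red cell RNA. Of the 75-base windows of its transcript, 40.6% also occur in 2 other annotated genes, and its counts are uncertain where reads could be assigned to those copies.

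Hk1, the hexokinase of red cells, brain and many other tissues (chromosome 10, 62268855 to 62379908), had an estimate below 0. It had 8.08, 157, 116 and 21.1 CPM in controls and 90.2, 22.6, 14.8 and 16.3 CPM in mito-supplemented libraries. The 3 high libraries were control replicates 2 and 3 and mito-supplemented replicate 1, the same 3 that were rich in red cell RNA. The log2 fold change was -1.07 (standard error 0.91, edgeR adjusted p = 0.755), and it was 0.31 without those 3 libraries, a comparison of 2 control with 3 mito-supplemented libraries added after the data were seen. Single omissions gave -2.07 (mito-supplemented replicate 1 omitted) to -0.43 (control replicate 2 omitted), and the groups overlapped in the full set. Within each library, the log2 ratio of Hk1 to Hk2 counts was 1.88, 5.32, 4.88 and 3.22 in controls and 3.14, 1.75, 0.58 and 0.23 in mito-supplemented libraries. Hk1 had more counts than Hk2 in all 8, and the difference in means, -2.40, did not pass the test (exact permutation test, two-sided, p = 0.0571, adjusted over 7 pairs 0.40, where 0.0286 is the smallest p that 4 against 4 allow).

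**Figure D2:**
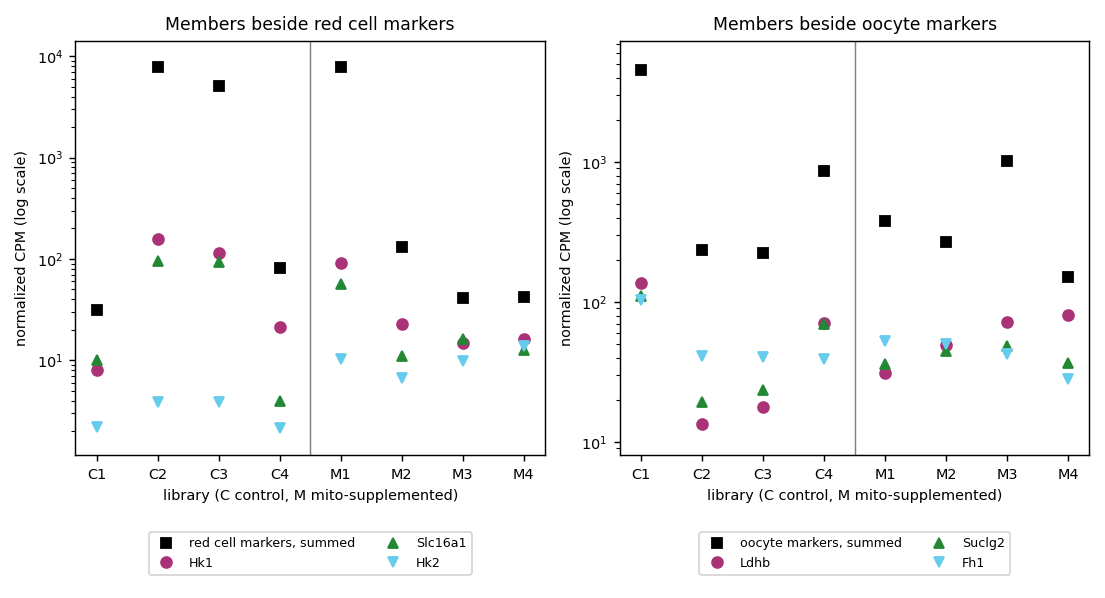
Normalized CPM (y axis, log scale) in each library (x axis, C control, M mito-supplemented) of Hk1, Slc16a1 and Hk2 beside the summed red cell markers (left), and of Ldhb, Suclg2 and Fh1 beside the summed oocyte markers (right). Hk1 and Slc16a1 are highest in control replicates 2 and 3 and mito-supplemented replicate 1, Hk2 is not, and Suclg2 and Fh1 are highest in control replicate 1.

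Among the glycolytic enzymes Gapdh, glyceraldehyde-3-phosphate dehydrogenase, had the highest mean per length over the 8 libraries, 26.2 CPM per kb of exon, and was the highest of them in 4 libraries. The length used throughout is that of all annotated exons of a gene joined, which can far exceed that of a single transcript. Gapdh had 33.4, 73.1, 108 and 139.5 CPM in controls and 163, 80.5, 82.3 and 185 CPM in mito-supplemented libraries. Control replicate 1 was lowest and the groups overlapped. Its log2 fold change was 0.53 (standard error 0.48, edgeR adjusted p = 0.771), and omitting control replicate 1 gave 0.28 and omitting control replicate 4 gave 0.85. Windows of its transcript occur in 121 other annotated genes (80.3% of windows), and the same holds for 67.5% of the windows of Pgk1, phosphoglycerate kinase, and 65.4% of those of Eno1, enolase. Aldoa, the aldolase of most tissues, followed at 24.7 CPM per kb, then the glucose-6-phosphate isomerase Gpi1 at 13.0 and, close to it, the pyruvate kinase Pkm. Pfkm, Tpi1, Eno1, Pgk1 and Pfkl stood between 7.25 and 2.29 CPM per kb, and Pgam1, Aldoc, Hk2 and Pfkp between 1.46 and 0.376. Pfkm, Pfkl and Pfkp encode the phosphofructokinases, which commit sugar to glycolysis, and the estimates of Pfkm and Pfkl were -0.15 and -0.12, but 1.00 and 0.80 without the 3 libraries rich in red cell RNA. Enolase varied least among the glycolytic enzymes, with a highest library at 1.64 times the lowest, followed by Gpi1 at 1.74, whereas Tpi1 reached 19.3 and Aldoc 34.4.

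**Figure D3:**
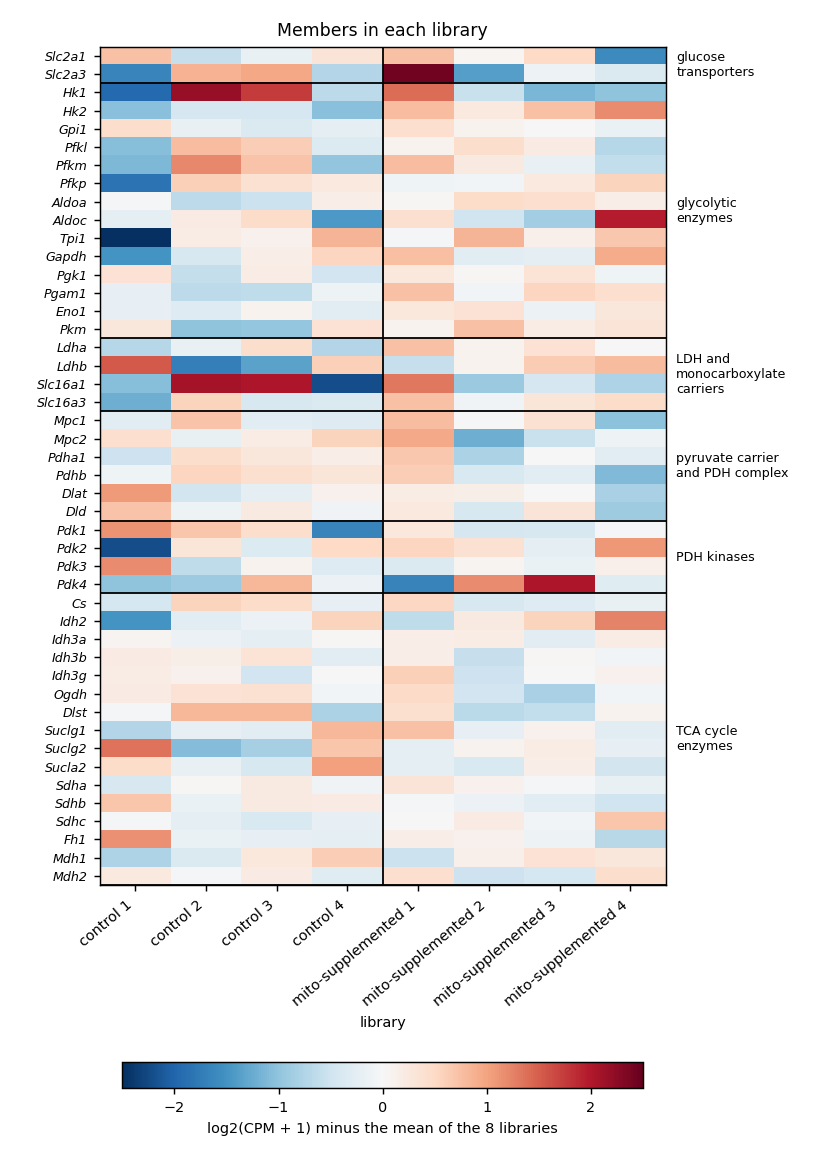
log2(CPM + 1) of each of the 46 members tested (rows, by role) minus its mean over the 8 libraries (colour), for each library (columns). Rows of Hk1 and Slc16a1 are red in control replicates 2 and 3 and mito-supplemented replicate 1, and rows of Ldhb, Suclg2 and Fh1 are reddest in control replicate 1.

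Glucose enters cells through the transporters Slc2a1 (GLUT1) and Slc2a3 (GLUT3). Slc2a1 had 13.4, 4.84, 6.58 and 9.87 CPM in controls and 13.3, 7.96, 11.3 and 1.88 CPM in mito-supplemented libraries, a log2 fold change of -0.01 (standard error 0.65, edgeR adjusted p = 0.998) that took either sign among the alternatives. Slc2a3 ran from 0.697 CPM in control replicate 1 to 27.1 CPM in mito-supplemented replicate 1, and its 3 highest libraries were the 3 rich in red cell RNA. Per length, Slc2a1 was at 2.46 and Slc2a3 at 0.967 CPM per kb, and Slc2a1 was the higher in all 8 libraries. In counts it was the higher in only 4 of the 8. The exons of Slc2a1 hold 3506 bases and those of Slc2a3 7245, against 3260 and 3959 bases in their longest coding transcripts. The order per length thus depends on the length used.

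In lactate exchange, Ldhb, the lactate dehydrogenase subunit of oocytes and heart (chromosome 6, 142490249 to 142507957), had the highest mean level per length of all members, 37.5 CPM per kb, though it was the highest member in only 4 of the 8 libraries. This rank depends on the length used. The exons of Ldhb hold 1570 bases and those of Gapdh 4133, against 1304 and 1420 bases in their longest coding transcripts. Without length, the mean CPM of Gapdh was 88.6 in controls and 128 in mito-supplemented libraries, against 59.4 and 58.3 for Ldhb. Ldhb had 136, 13.4, 17.7 and 70.7 CPM in controls and 30.9, 49.4, 72.2 and 80.7 CPM in mito-supplemented libraries. It was highest in control replicate 1, the library with the most oocyte RNA, and lowest in control replicates 2 and 3. The next highest was mito-supplemented replicate 4, the library with the least oocyte RNA. The log2 fold change was -0.03 (standard error 0.69, edgeR adjusted p = 0.993), and it became 0.81 without control replicate 1 and -0.59 without the 3 libraries rich in red cell RNA. With limma-voom it was 1.60 (limma-voom adjusted p = 0.0269). Ldha, the subunit typical of glycolytic tissue, was at 18.8 CPM per kb and had fewer counts than Ldhb in 3 of the 8 libraries, control replicates 1 and 4 and mito-supplemented replicate 4. The difference in the log2 ratio of Ldha to Ldhb was 0.11 (exact permutation test, two-sided, p = 0.943).

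Slc16a1 (MCT1), which carries lactate and pyruvate across the cell membrane (chromosome 3, 104638668 to 104658462), had 9.97, 96.5, 92.5 and 3.95 CPM in controls and 56.3, 11.1, 16.2 and 12.5 CPM in mito-supplemented libraries. As for Hk1, the 3 high libraries were those rich in red cell RNA. The log2 fold change was -1.08 (standard error 0.94, edgeR adjusted p = 0.764), and it was 0.95 without those 3 libraries, -0.57 with only control replicate 2 omitted and -1.92 with only mito-supplemented replicate 1 omitted. The related carrier Slc16a3 (MCT4) stood lower, at 0.905 against 8.44 CPM per kb. Over all members, 9 of 46 had these 3 libraries as their 3 highest (Slc2a3, Hk1, Pfkm, Slc16a1, Pdha1, Pdhb, Cs, Ogdh and Dlst), against 14.1% of all genes tested.

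The genes of pyruvate entry had levels between 1.45 and 19.6 CPM per kb. The pyruvate carrier subunits Mpc1 and Mpc2 were at 1.45 and 3.01, the E1 subunits Pdha1 and Pdhb at 7.66 and 10.4, the E2 subunit Dlat at 6.22 and the E3 enzyme Dld at 19.6 CPM per kb. Mpc2 has 7344 bases of exon but 1025 in its longest coding transcript, so its level per length depends on the length used. Dld, which the TCA cycle's 2-oxoglutarate dehydrogenase also uses, had 114, 62.4, 80.5 and 64.9 CPM in controls and 81.1, 51.7, 85.9 and 36.8 CPM in mito-supplemented libraries. Control replicate 1 was highest, mito-supplemented replicate 4 lowest, and the groups overlapped. Its log2 fold change was -0.33 (standard error 0.38, edgeR adjusted p = 0.807), and it was -0.0952 without control replicate 1. The 6 fold changes ran from -0.47 for Pdhb to 0.17 for Mpc1, the only one above 0. The median of the 6 was below 0 in each of the 20 alternatives run, from -0.62 without the 3 libraries rich in red cell RNA to -0.0773 with library size alone. Relative to the median of all genes it was -0.22, but -0.00714 once mito-supplemented replicate 4 was omitted and -0.0489 once replicate 2 of that group was, so the shift depends on these libraries.

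The pyruvate dehydrogenase kinases, which switch the complex off by phosphorylation, did not share a direction. Pdk3 had the highest mean per length (9.74 CPM per kb), but Pdk2 was above it in 4 of the 8 libraries. Pdk3 had 53.9, 14.4, 24.5 and 18.4 CPM in controls and 17.9, 24.4, 20.6 and 25.4 CPM in mito-supplemented libraries. Its log2 fold change was -0.33 (standard error 0.46, edgeR adjusted p = 0.840), and without control replicate 1, its highest library, it was 0.23. Pdk4, which is induced when fat is burnt in place of glucose, had 0.985, 1.11, 6.00 and 2.57 CPM in controls and 0.243, 8.03, 15.1 and 2.23 CPM in mito-supplemented libraries. The highest and the lowest library of Pdk4 were both mito-supplemented, and the log2 fold change was 1.26 (standard error 1.10, edgeR adjusted p = 0.763). Omitting mito-supplemented replicate 3 gave 0.42 and omitting control replicate 3 gave 2.06, the ends of its range over single omissions. Pdk2 and Pdk1 were at 7.72 and 4.24 CPM per kb, with estimates above and below 0.

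The TCA cycle enzymes varied less between libraries than the other roles. The median ratio of the highest to the lowest library was 2.40 over the TCA enzymes, against 3.62 over pyruvate entry, 4.71 over the glycolytic enzymes and 6.21 over all genes tested. Sdha, the flavoprotein of succinate dehydrogenase, had the highest mean per length of them (26.5 CPM per kb) and was the highest in 4 of the 8 libraries. It had 82.2, 111, 127 and 101 CPM in controls and 136, 117, 106 and 94.6 CPM in mito-supplemented libraries. The libraries of both groups lay within a narrow range, and the log2 fold change was 0.10 (standard error 0.29, edgeR adjusted p = 0.919). Ogdh, Cs and Mdh2, which encode 2-oxoglutarate dehydrogenase, citrate synthase and mitochondrial malate dehydrogenase, followed at 22.4, 19.9 and 19.5 CPM per kb, differences within their spreads. This order depends on the length used. The exons of Sdha hold 4126 bases and those of Mdh2 3562, against 2900 and 1456 bases in their longest coding transcripts. Idh3g, Idh3b, Mdh1, Fh1, Idh2, Suclg2 and Sdhb stood between 18.2 and 10.3, and Sdhc, Dlst, Sucla2, Idh3a and Suclg1 between 8.46 and 2.67 CPM per kb. The 3 subunits of isocitrate dehydrogenase 3 differed in level, with Idh3a at 4.58 against 17.5 for Idh3b and 18.2 for Idh3g. Idh3a varied least of all members, with a highest library at 1.41 times the lowest.

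Fumarase (Fh1) and the GTP-forming succinate-CoA ligase subunit Suclg2 were highest in control replicate 1. Suclg2 had 109.8, 19.3, 23.5 and 69.1 CPM in controls and 36.2, 44.9, 48.4 and 36.8 CPM in mito-supplemented libraries, low in control replicates 2 and 3 as Ldhb was. Of the 46 members, 11 were highest in control replicate 1 (23.9%, against 22.5% of all genes tested) and 11 in mito-supplemented replicate 1 (23.9%, against 8.07%). Without the 3 libraries rich in red cell RNA, 3 members had an unadjusted p under 0.05, namely Hk2, Ldha and Suclg2, against 10.8% of all genes in the same fit, and Ldha and Suclg2 were named after their values were seen. Their log2 fold changes there were 2.24, 0.92 and -1.02, and 0 members had an adjusted p under 0.05 in edgeR.

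Summed over members per length, the glycolytic enzymes reached 76.9, 99.99, 102 and 110.0 CPM per kb in control replicates 1 to 4 and 136, 119, 105 and 129.7 CPM per kb in mito-supplemented replicates 1 to 4. The TCA cycle enzymes summed to 235, 218, 229.5 and 223 CPM per kb in controls and 246, 186, 197 and 224 CPM per kb in mito-supplemented libraries. The groups overlapped in both sums, and the TCA sum was the steadier one in controls. Pyruvate entry summed to 62.0, 50.3, 52.8 and 49.3 CPM per kb in controls and 63.5, 34.4, 48.1 and 26.5 CPM per kb in mito-supplemented libraries, again with overlap.

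The ratio of the glycolytic to the TCA sum, which does not depend on the scaling between libraries, was 0.327, 0.460, 0.445 and 0.494 in controls and 0.552, 0.640, 0.533 and 0.578 in mito-supplemented libraries. The groups did not overlap, with means of 0.431 ± 0.0724 and 0.576 ± 0.0466 (SD, n = 4 each). The ratio was chosen after the sums were seen, and no p is given for a score over the members. The groups overlapped when the 4 enzymes with most shared windows (Gapdh, Pgk1, Pgam1 and Eno1) were left out, with controls up to 0.352 and mito-supplemented libraries from 0.335. They also overlapped without Gapdh and Aldoa, and with mean log2 levels in place of sums. They did not overlap in CPM without length (controls up to 0.535, mito-supplemented from 0.579) or without Gapdh alone (up to 0.3782, from 0.3788). The log2 ratio of the group means was 0.42, and it stayed between 0.26 and 0.51 in these and the other alternatives. The ratio of the pyruvate entry to the glycolytic sum was 0.807, 0.503, 0.517 and 0.448 in controls and 0.467, 0.290, 0.457 and 0.204 in mito-supplemented libraries, and there the groups overlapped.

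**Figure D4:**
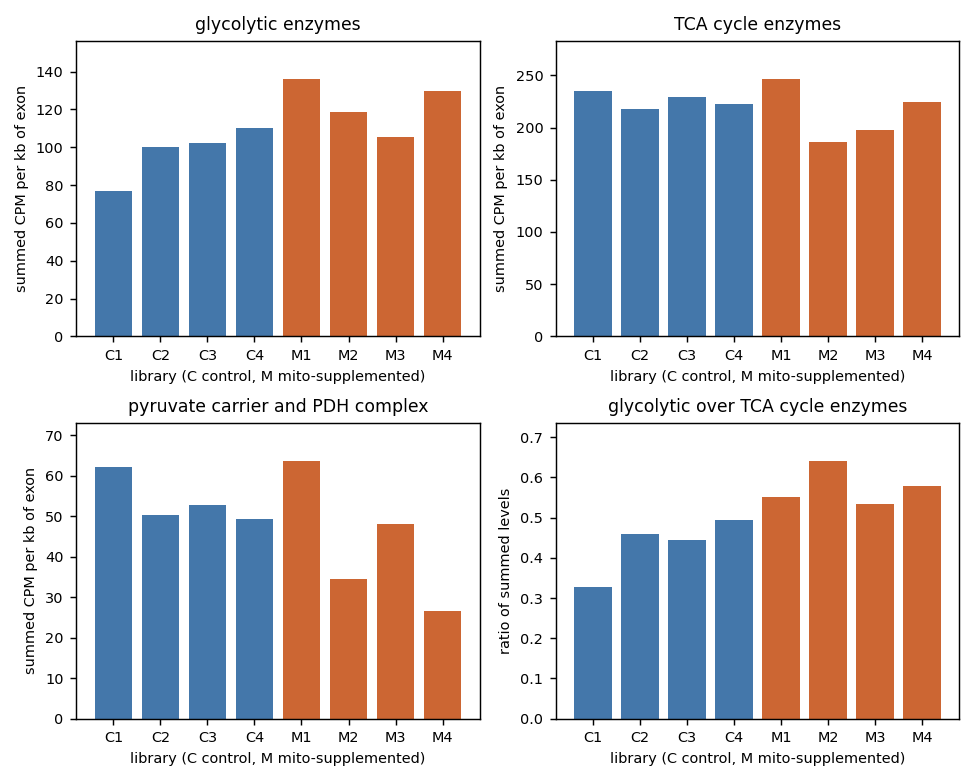
Summed level of the glycolytic enzymes, the TCA cycle enzymes and the pyruvate entry genes in each library (bars, CPM per kb of exon; blue control, orange mito-supplemented), and the ratio of the glycolytic to the TCA sum. The ratio runs from 0.327 to 0.494 in controls and from 0.533 to 0.640 in mito-supplemented libraries, and the groups overlap once the 4 enzymes with most shared windows are left out.

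The other 5 ratios of related genes within a library did not pass the test either. Aldoa exceeded Aldoc, and Slc16a1 exceeded Slc16a3, in all 8 libraries, while Mpc1 had fewer counts than Mpc2 in all 8. Suclg2 exceeded Sucla2, its ATP-forming counterpart, in 7 of 8. The differences in mean log2 ratio were -0.58 for Slc2a1 to Slc2a3, -0.12 for Aldoa to Aldoc, -1.29 for Slc16a1 to Slc16a3, 0.53 for Mpc1 to Mpc2 and 0.40 for Suclg2 to Sucla2 (exact permutation tests, two-sided, p from 0.286 to 0.943, adjusted over 7 pairs from 0.866 to 0.943). The difference for Aldoa to Aldoc took the other sign with an offset of 2 counts.

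**Figure D5:**
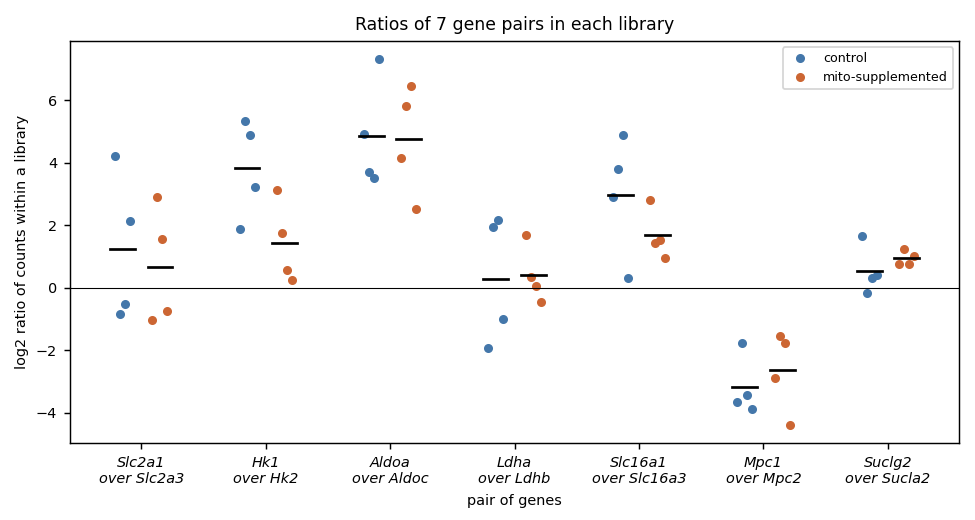
Log2 ratio of the counts of 7 pairs of related genes (x axis) within each library (points, blue control, orange mito-supplemented), with the group means as black lines. The groups overlap in all 7 pairs, and Hk1 to Hk2 has the largest difference in means, -2.40.

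Of 68 other genes of these pathways, 48 were tested, with 15 above and 33 below 0 and a median of -0.21. In edgeR 0 had an adjusted p under 0.05 and 2 an unadjusted p under 0.05, Ldhd and Idh1, against 7.71% of all genes. The groups were separated for 0 of the 48, against 5.03% of all genes. Ldhd, the dehydrogenase of D-lactate, had 0.287, 0.159, 0.572 and 0 CPM in controls and 2.67, 1.52, 0.544 and 4.10 CPM in mito-supplemented libraries, a log2 fold change of 2.98 (standard error 1.10, edgeR adjusted p = 0.626) that rests on few counts. Idh1, the cytosolic isocitrate dehydrogenase, had 40.7, 33.2, 33.7 and 77.4 CPM in controls and 55.5, 150.1, 120.0 and 75.8 CPM in mito-supplemented libraries, a log2 fold change of 1.12 (standard error 0.43, edgeR adjusted p = 0.626). Control replicate 4 lay within the mito-supplemented range. Of the 8 other genes of pyruvate entry tested, which include the pyruvate dehydrogenase phosphatases and pyruvate carboxylase, all 8 had an estimate below 0, with a median of -0.68 and a lowest unadjusted p of 0.153 in edgeR. Pdp1, Pdpr, Lipt1 and Lipt2 were highest in control replicate 1, while Pdhx, Pdp2, Pcx and Lias were not. Pdp1 had 28.55 CPM there, against 4.76 to 18.4 CPM in the other controls. Estimates without that library are not given for these genes. The pentose phosphate genes had 6 of 7 below 0, with a median of -0.42. Of the 19 other genes of glucose transport and glycolysis, 7 were above and 12 below 0, with a median of -0.18. The 12 other TCA cycle genes had 5 above and 7 below 0 (median -0.12), and both other lactate genes were above 0. Of all genes tested, 44.9% were above 0.

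Promoters of 44 members were found in RefSeq (GRCm38.p6), and Slc2a3, Idh3a and Sdhc had no entry. They were searched on both strands, in windows from 250 bases before to 50 after each start, for ACGTG, the core of the hypoxia response element, which lies within the E-box CACGTG, and for AGATAA, a form of the GATA motif. The core ACGTG was found in 27 of 63 windows of the members (42.9%), against 19.6% of all 32851 windows. Genes can have several windows, and Ogdh has 6, all with a match. By gene it was found in 20 of 44 members (45.5%), against 21.8% of all genes. These were 9 of 14 glycolytic enzymes, 3 of 4 genes of lactate exchange, 1 of 6 pyruvate entry genes, 2 of 4 kinases, 4 of 15 TCA enzymes and Slc2a1. CACGTG was in 11.1% of the members' windows against 7.15% of all, and AGATAA in 7.94% against 11.2%. The background was all 27025 genes with a promoter entry, expressed here or not. It was not matched to the members for base composition or expression, and the differences in share were not tested. The 250 bases before the start are shown for Hk2 and Pgam1, whose groups did not overlap, and for Ldha, which had the most matches in a window, with ACGTG on either strand in capitals. They lie at chr6:82774455-82774704 (minus strand), chr19:41911621-41911870 (plus strand) and chr7:46845554-46845803 (plus strand), upstream of the annotated start.
Hk2: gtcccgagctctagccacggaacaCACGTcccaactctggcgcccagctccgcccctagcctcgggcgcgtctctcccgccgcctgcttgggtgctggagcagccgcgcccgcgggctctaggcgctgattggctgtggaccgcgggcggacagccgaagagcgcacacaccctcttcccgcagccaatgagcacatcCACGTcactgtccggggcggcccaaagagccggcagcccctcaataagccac
Pgam1: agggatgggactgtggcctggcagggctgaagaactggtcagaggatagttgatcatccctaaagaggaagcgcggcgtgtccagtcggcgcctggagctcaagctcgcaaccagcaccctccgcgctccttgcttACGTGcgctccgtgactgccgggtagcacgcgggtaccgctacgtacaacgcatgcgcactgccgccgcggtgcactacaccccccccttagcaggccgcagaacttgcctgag
Ldha: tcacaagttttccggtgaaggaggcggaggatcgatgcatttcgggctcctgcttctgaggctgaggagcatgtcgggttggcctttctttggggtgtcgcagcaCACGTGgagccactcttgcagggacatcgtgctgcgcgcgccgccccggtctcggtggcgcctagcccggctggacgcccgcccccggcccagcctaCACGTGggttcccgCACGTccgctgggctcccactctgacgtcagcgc
Hk2 held 2 matches, Pgam1 1 and Ldha 5, of which 4 lie in 2 copies of CACGTG, where both strands match. A match describes these letters only, and binding was not measured.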

How the data were processed

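RNA-Seq counts of 4 control and 4 mito-supplemented libraries were used. Per the submitters' processing notes and the methods of the study, the authors trimmed reads with Trim Galore 0.4.4, mapped them to GRCm38 (mm10) with STAR 2.5.3a and counted them on exons with featureCounts, and the deposited values are raw counts per gene symbol. How reads with several places were treated, the strand setting and the annotation release are not given in the sources used here. Libraries came from amplified cDNA. A further control library, excluded by the authors, was not analysed here.

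The counts were fitted with edgeR 4.0.16 (R 4.3.3), TMM factors and its default filter, which kept 13873 genes. The quasi-likelihood test was used with Benjamini-Hochberg adjustment over all genes tested, and standard errors were derived from its F statistic. DESeq2 1.42.0 and limma 3.58.1 served as alternatives. Symbols were matched to GENCODE M21 for 24546 genes, which gave exon lengths as the joined length of all annotated exons of a gene. Ratios within a library used an offset of 0.5 counts. A fold change with its error and the value in every library was given for members with an unadjusted p under 0.05, groups without overlap or a log2 fold change of at least 1 in size, and for the member of each role with the highest mean per length. Outside this rule, and after the values were seen, Suclg2 is given by library, and Ldha and Suclg2 with a fold change in 1 alternative. Pfkm and Pfkl are likewise given with a fold change in the full set and in that alternative. Pdhb and Mpc1 are named with a fold change as the ends of a range. The members and lists were chosen with earlier results of these data known. The code was tested on simulated data.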

Additional observations from a re-analysis of the deposited data

Results flagged for a closer look

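Of 118 groups of 4 libraries examined (members on the log2 CPM scale, summed levels and ratios, each in controls and in mito-supplemented libraries), 4 held a library far from the other 3, where chance gives about 1 in 20, or 5.90. Pfkp in control replicate 1 was at a log2 CPM of -0.61, against 2.5 to 2.89 in the other controls. Fh1 in control replicate 1, the library richest in oocyte RNA, was at 6.69, against 5.30 to 5.37. Mpc1 in control replicate 2 was at 2.40, against 1.07 to 1.17. Idh3a in mito-supplemented replicate 3 was at 4.24, against 4.71 to 4.73.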

How the results depend on the processing

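Counts of members with an adjusted p under 0.05 were 0 in 19 of 20 alternatives, and 8 with limma-voom and sample quality weights (Hk1, Hk2, Aldoa, Pkm, Ldhb, Slc16a1, Ogdh and Dlst), or 17.4% of members, where 2913 of all 13873 genes were called. At an unadjusted p under 0.05 the count was 13 with limma-voom, 2 with library size alone, 3 without the 3 libraries rich in red cell RNA and 0 with counts summed by the first part of the label code, the last 2 chosen after seeing the data. The shares of all genes in these fits were 37.6%, 9.67%, 10.8% and 7.5%. Leaving out each library in turn gave 1 to 2, with 2 without control replicate 4 (Hk2 and Pdk1; 12.6% of all genes) and without mito-supplemented replicate 1 (Hk1 and Hk2; 14.1%). The glycolytic median was above 0 in all 20 alternatives, from 0.22 to 0.75, the latter with library size alone. The TCA median was 0.11 with limma-voom, 0.15 with library size alone and 0.0556 with every gene of at least 1 count. The summed glycolytic and TCA levels moved to log2 ratios of 0.67 and 0.19 with library size alone. The causes were not tested.

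With the replicate block, members called remained 0, those at an unadjusted p under 0.05 were 1 (against 7.07% of all genes), and the medians were 0.44 for glycolytic enzymes, -0.31 for pyruvate entry and -0.05 for the TCA cycle. Among the members given with a fold change and its error, Ldhb was the only one that changed sign, to 0.59. The deviations of libraries with the same number correlated at -0.24, -0.19, -0.33 and 0.22, so the numbers were not read as a pairing.

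Single fold changes took the other sign as follows. Slc2a1 was at 0.51 with limma-voom, 0.23 with library size alone, 0.0297 with totals without ribosomal RNA genes, 0.0533 with every gene of at least 1 count, 0.0278 with at least 1 CPM in 4 libraries, and between -0.26 and 0.37 with each library left out. Ldhb was at 1.60, 0.11, 0.0204, 0.0449 and 0.0167 in the same 5 alternatives, at 0.19 with summed counts, and between -0.36 and 0.81 with each library left out. With limma-voom, Gapdh was at -0.024, Sdha at -0.0873 and Pdk3 at 0.0139. Leaving out libraries in turn put Pdk3 between -0.55 and 0.23. Without the 3 red cell libraries, Hk1 was at 0.31 and Slc16a1 at 0.95.

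Leaving out each library in turn put the difference in log2 ratio at -1.32 to 0.41 for Slc2a1 to Slc2a3, -0.69 to 0.69 for Aldoa to Aldoc, -0.63 to 0.74 for Ldha to Ldhb and 0.15 to 0.76 for Suclg2 to Sucla2. It was at 0.16 to 1.11 for Mpc1 to Mpc2 (lowest without mito-supplemented replicate 2, highest without replicate 4), -2.18 to -0.65 for Slc16a1 to Slc16a3 (without control replicates 4 and 3) and -3.05 to -1.90 for Hk1 to Hk2. Suclg2 to Sucla2 was at 0.76 without control replicate 1 (two-sided exact p by permutation = 0.0286). Aldoa to Aldoc was at 0.0239 with an offset of 2. Low counts of Hk2, Pgam1, Pdk4, Aldoc and Ldhd, and the 2559876 counts outside ribosomal RNA genes in control replicate 4, limit precision.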
